A study of Homo sapiens with 74 samples.

Results

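Cut&Run peaks were examined at the promoters of 10 genes that encode heat shock chaperones: HSPA1A, HSPA1B, HSPA8, HSPH1, DNAJB1, DNAJA1, HSP90AA1, HSP90AB1, HSPD1 and HSPE1. These are 10 of 20033 protein-coding genes in the annotation, and they were chosen by name, with earlier results of these data known. A peak was assigned to a gene when its nearest edge lay within 1 kb of any annotated transcription start site (TSS) of that gene. Cut&Run uses an antibody to bring a nuclease to the chromatin where a tagged protein sits, so a peak can mark direct or indirect contact with DNA. In this study, each library came from HEK293T, a transformed human embryonic kidney line, after transfection of a plasmid for one zinc-finger protein (ZFP) with a C-terminal V5 tag, driven by the EF1-alpha promoter. Chromatin was profiled after 48 h with a V5 antibody, and un-transfected HEK293T cells taken through the same V5 immunoprecipitation served as control (mock IP). The lists of 36 ZFPs, with 2 biological replicates from separate wells for each, gave 72 lists and 92122 peaks. No heat treatment is named for any sample. The tagged protein came on top of any ZFP that the cells made themselves, which was not examined here.

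Chaperones help other proteins to fold, to refold after damage and to reach their partners. The HSP70 proteins bind short stretches of unfolded chains, J proteins (HSP40) deliver clients to them and start ATP hydrolysis, and HSP110 proteins exchange the nucleotide. HSP90 acts later on kinases, receptors and other clients, and HSP60 with HSP10 forms the folding chamber of mitochondria. Many of these genes are switched on together by heat shock factor 1, which binds heat shock elements, rows of the unit GAA and its reverse complement TTC in alternating direction. Several of them are also expressed at high levels without stress.

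Promoters at the principal starts of some members are shown first, 250 bases before to 50 bases after the RefSeq start, on GRCh38.p14 and read along the gene. All 10 genes had such a window, 16 windows in all, and all 16 were identical to the hg38 sequence used for the peaks. Capitals mark the units of each heat shock element with at least 2 units, GAANNTTC or TTCNNGAA, where N is any base. The HSPD1 window at chr2:197499791-197500090, minus strand, is shown because it held the summits of 12 of the 14 peaks at this promoter. The HSPA1A window at chr6:31815293-31815592 and the HSPA1B window at chr6:31827488-31827787, both plus strand, are shown because they are near-identical copies with different calls. The DNAJB1 window at chr19:14518348-14518647, the HSP90AA1 window at chr14:102086995-102087294 and the HSPA8 window at chr11:123062087-123062386, all minus strand, hold the principal starts of the other genes with recurring peaks. The windows of DNAJB1, HSP90AA1 and HSPA8 held 1, 5 and 0 summits, and that of HSPA1B held 4. The other summits of these genes lay outside the printed bases. Near the upstream starts of DNAJB1 and HSP90AA1, described below, 8 and 7 peaks lay. The RefSeq windows taken there held 0 elements of at least 2 units and are not printed.
HSPD1: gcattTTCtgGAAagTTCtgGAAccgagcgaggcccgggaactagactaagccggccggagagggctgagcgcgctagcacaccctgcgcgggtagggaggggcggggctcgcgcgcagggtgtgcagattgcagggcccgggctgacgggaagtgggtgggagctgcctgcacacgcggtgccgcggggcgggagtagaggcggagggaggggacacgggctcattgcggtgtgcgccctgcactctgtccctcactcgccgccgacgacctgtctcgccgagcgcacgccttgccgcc
HSPA1A: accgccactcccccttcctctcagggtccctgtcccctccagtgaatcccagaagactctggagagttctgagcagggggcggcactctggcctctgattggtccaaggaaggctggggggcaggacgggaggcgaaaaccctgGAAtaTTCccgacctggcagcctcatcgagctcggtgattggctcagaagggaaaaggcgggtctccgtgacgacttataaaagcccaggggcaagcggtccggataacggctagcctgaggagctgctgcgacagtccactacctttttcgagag
HSPA1B: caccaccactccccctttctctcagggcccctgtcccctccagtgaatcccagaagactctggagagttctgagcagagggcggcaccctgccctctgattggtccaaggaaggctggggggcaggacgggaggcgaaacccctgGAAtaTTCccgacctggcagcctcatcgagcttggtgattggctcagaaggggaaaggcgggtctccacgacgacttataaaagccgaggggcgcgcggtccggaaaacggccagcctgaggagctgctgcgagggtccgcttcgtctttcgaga
DNAJB1: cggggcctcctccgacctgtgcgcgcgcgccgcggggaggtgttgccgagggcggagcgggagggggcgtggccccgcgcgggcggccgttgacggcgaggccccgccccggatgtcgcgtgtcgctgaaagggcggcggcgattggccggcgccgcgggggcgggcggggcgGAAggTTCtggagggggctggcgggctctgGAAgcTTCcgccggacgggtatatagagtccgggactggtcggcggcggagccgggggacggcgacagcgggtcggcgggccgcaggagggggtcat
HSP90AA1: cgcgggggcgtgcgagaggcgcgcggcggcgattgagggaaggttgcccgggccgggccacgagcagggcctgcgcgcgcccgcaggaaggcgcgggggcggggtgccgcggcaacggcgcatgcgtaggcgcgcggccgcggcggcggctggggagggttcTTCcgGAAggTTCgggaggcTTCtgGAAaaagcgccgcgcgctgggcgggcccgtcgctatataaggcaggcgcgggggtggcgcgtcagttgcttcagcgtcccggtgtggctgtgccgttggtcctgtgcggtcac
HSPA8: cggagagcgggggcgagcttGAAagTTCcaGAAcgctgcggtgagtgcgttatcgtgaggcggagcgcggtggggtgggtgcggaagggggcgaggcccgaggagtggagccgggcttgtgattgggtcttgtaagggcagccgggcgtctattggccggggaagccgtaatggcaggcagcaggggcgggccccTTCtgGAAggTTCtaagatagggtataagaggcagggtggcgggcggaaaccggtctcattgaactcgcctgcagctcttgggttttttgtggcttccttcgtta

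Of the 10 members 9 were called at least once, and HSPA1A was called in no list. A member was called in 73 of 720 gene-by-list pairs, or 10.1%, and over all protein-coding genes the same rule called 3.25% of pairs. In the replicate 1 lists 53 of 360 pairs were called, or 14.7%, beside 4.42% over all genes. In the replicate 2 lists 20 of 360 were called, or 5.56%, beside 2.07% over all genes. The members' share was the larger of the pair in each replicate, and both shares were lower in replicate 2, whose lists held 37570 peaks against 54552. The share of genes called by any ZFP in either replicate was 9 of 10 members and 55.7% of all genes. In addition, 6 members were called in both replicates of at least one ZFP, beside 16.6% of all genes. At least 10 ZFPs had a peak at 4 members, DNAJB1, HSP90AA1, HSPD1 and HSPE1, beside 2.25% of all genes. When only peaks within 1 kb of the principal start of each gene were counted, this number was 2 of 10, HSPD1 and HSPE1, beside 1.73% of all genes. These last 2 genes share one promoter and the same peaks, so they are one observation. The background counts every annotated protein-coding gene, and gene expression was not used here.

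**Figure D1:**
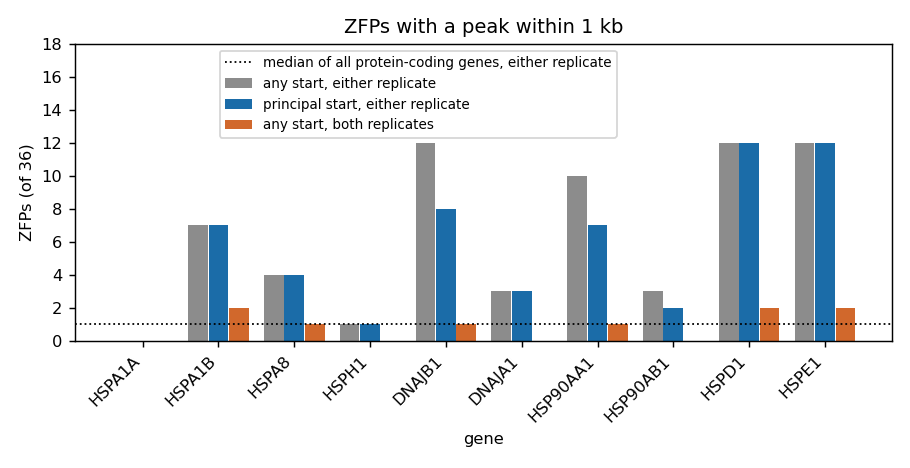
Number of ZFPs (of 36) with a peak within 1 kb of each gene, counted at any start in either replicate (grey), at the principal start in either replicate (blue) and at any start in both replicates (orange). The dotted line is the median of all protein-coding genes, 1 ZFP; HSPD1, HSPE1 and DNAJB1 reach 12 ZFPs in either replicate and no gene exceeds 2 in both.

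In total, 73 distinct peaks lay at the members. Their fold, the ratio of the library's signal over the mock IP at the summit, ran from 1.99 to 9.05 with a median of 5.13. Their -log10 q, the peak caller's adjusted significance, ran from 1.37 to 10.9 with a median of 3.27, and peaks with a value below 1.30 were not in the lists. Within its own list, the fold of a member peak stood at a median percentile of 55.1 among all promoter peaks, with a range of 0.81 to 98.7 and 40 of 73 above the 50th percentile. The 73 peaks were 148 to 953 bp wide, with a median of 318 bp. Of these, 20 lay within 1 kb of an alternative start and not of the principal one, and these are described apart.

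**Figure D2:**
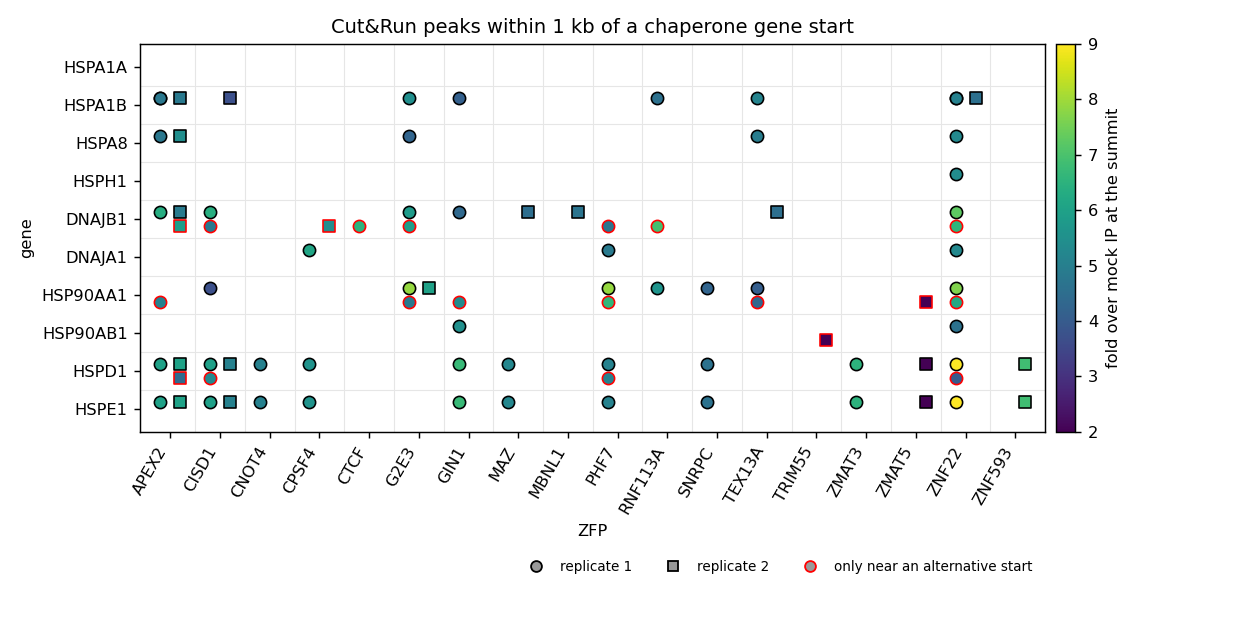
Fold over mock IP (colour) of each peak within 1 kb of a chaperone gene start, by gene (rows) and by the 18 ZFPs with any such peak (columns), with circles for replicate 1 and squares for replicate 2. Red outlines mark peaks near an alternative start only, and 2 peaks of one list at HSPA1B lie on top of each other for APEX2 and for ZNF22; the ZNF22 replicate 1 column holds peaks at 9 of 10 genes.

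HSPD1, the mitochondrial chaperonin HSP60, and HSPE1, its partner HSP10, lie head to head on chromosome 2 with principal starts 539 bp apart. One promoter serves both, and its peaks at chr2:197499429-197500599 were called in 14 lists of 12 ZFPs, 10 of replicate 1 and 4 of replicate 2. APEX2 had peaks there in both replicates, with folds of 6.01 and 6.04 (mean 6.02 ± 0.0237, SD, n = 2). CISD1 also had peaks in both, with folds of 5.95 and 5.04 (mean 5.50 ± 0.643, SD, n = 2). APEX2 is an endonuclease of base excision repair and CISD1 is an iron-sulfur protein of the outer mitochondrial membrane. In the APEX2 pair the summits lay 30 bp apart, and in the CISD1 pair 42 bp apart.

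The highest fold of all member peaks was also here, 9.05 in ZNF22 replicate 1, at the 97.0th percentile of that list's promoter peaks. ZNF22 replicate 2 had no peak at this promoter. The other folds were 6.86 in ZNF593 replicate 2, 6.71 in GIN1 replicate 1 and 6.50 in ZMAT3 replicate 1. Lower values followed in CPSF4 replicate 1 at 5.60, in MAZ replicate 1 at 5.23, in PHF7 replicate 1 at 5.08 and in CNOT4 replicate 1 at 5.05. SNRPC replicate 1 had 4.63 and ZMAT5 replicate 2 had 2.00. Thus 10 of the 12 ZFPs had the peak in only one of their replicates. Calls in one replicate were common over all genes too. There, 3.25% of gene-by-list pairs were called, and 0.709% when only peaks that overlapped the other replicate were kept. The CNOT4 and MAZ lists in question were short, 292 and 371 peaks, and called 0.220% and 0.280% of all genes.

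The summits at this promoter were close together. In 12 of 14 lists they fell between positions 197499855 and 197500017, a span of 162 bp that lies just upstream of the HSPD1 start. The exceptions were PHF7 replicate 1, with its summit at 197500290, and ZMAT5 replicate 2, with its summit at 197500452. The row of GAA and TTC units seen in capitals at the left end of the HSPD1 sequence lay 54.5 to 216.5 bp from these 12 summits, with a median of 94 bp. A further 4 peaks belonged to HSPD1 only by an annotated start 16897 bp upstream. They lay at chr2:197515729-197516299 in APEX2 replicate 2 and in replicate 1 of CISD1, PHF7 and ZNF22, with folds of 3.96 to 5.28. All 4 were within 1 kb of a start of MOB4, and those of APEX2 and PHF7 covered its principal start at 197516066.

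Among the HSP70 genes, HSPA1B, HSPA1A and HSPA8 differed in their calls. HSPA1B, a stress-inducible HSP70, was called in 9 lists of 7 ZFPs at chr6:31827278-31828334. APEX2 had folds of 5.13 and 4.83 in its replicates (mean 4.98 ± 0.213, SD, n = 2) and ZNF22 had 5.09 and 4.56 (mean 4.83 ± 0.373, SD, n = 2), taking the strongest peak per list. The lists of APEX2 replicate 1 and ZNF22 replicate 1 held a further peak each, with folds of 4.81 and 5.05. G2E3 replicate 1 had 5.47, TEX13A replicate 1 had 5.15, RNF113A replicate 1 had 4.59, GIN1 replicate 1 had 4.13 and CISD1 replicate 2 had 3.71. The folds of ZFPs with 1 and with 2 called replicates therefore overlapped.

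HSPA1A encodes the same kind of inducible HSP70 and starts at position 31815543 of chromosome 6, and no list had a peak within 1 kb of its start. No list had one within 2000 bp either. The gene HSPA1L, which starts 260 bp away on the other strand, also had none. From 250 bp before to 50 bp after the start, the copies HSPA1A and HSPA1B were identical at 277 of 301 aligned positions, 92.0%, and each window held one GAANNTTC element, 2 CCAAT boxes and a TATAAA box. Stretches of 50 bases, a length chosen for this comparison, separated the promoters but not the coding parts. No 50-base stretch of the HSPA1B window also stood in the HSPA1A window, but within 1000 bp to either side of the start 38.1% did. The 11 HSPA1B peaks fell on both kinds of sequence. In 5 of them the summit lay 71 to 283 bp upstream, and no 50-base stretch within 100 bp of these summits also stood at HSPA1A. In the other 6 the summit lay 205 to 489 bp downstream, and 32.9% to 100% of the stretches around it also stood at HSPA1A. The sources used here do not say how reads that fit both copies were placed, and the part of read placement in the 9 lists against 0 was not tested.

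HSPA8, the constitutive HSP70 (HSC70), was called in 5 lists of 4 ZFPs at chr11:123062193-123062986. The folds were 4.77 and 5.44 in APEX2 replicates 1 and 2 (SD 0.472, n = 2), 5.29 in ZNF22 replicate 1, 4.95 in TEX13A replicate 1 and 4.26 in G2E3 replicate 1. In 4 of 5 lists the summit lay 265 to 346 bp upstream of the principal start, and in APEX2 replicate 1 it lay 778 bp upstream. The 2 APEX2 peaks did not overlap, and their summits were 471 bp apart, so the gene was called in both replicates but not the same place. HSPH1, an HSP110 that acts as exchange factor for HSP70, was called once, in ZNF22 replicate 1, with a fold of 5.37. Its summit lay 351 bp upstream of the principal start and 133 bp downstream of the nearest annotated start.

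Among the J proteins, DNAJB1 was called for 12 ZFPs and DNAJA1 for 3. DNAJB1, an HSP40 that is induced by heat and works with HSP70 on aggregates, was called in 13 lists of 12 ZFPs. Its peaks fell into separate places. At the principal start, chr19:14517623-14518809, 9 lists of 8 ZFPs had a peak, with folds of 4.37 to 7.28 and a median of 4.87. The highest values were 7.28 in ZNF22 replicate 1, 6.38 in CISD1 replicate 1 and 6.36 in APEX2 replicate 1. APEX2 replicate 2 had 4.87 at this start, and its summit lay 223 bp from that of replicate 1. Summits there lay from 272 bp upstream to 397 bp downstream, with a median of 170 bp downstream, past the elements printed above. Of these 9 peaks 5 also lay within 1 kb of a start of TECR, a gene on the other strand.

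At an upstream pair of DNAJB1 starts, 10949 and 11406 bp from the principal one, 8 lists of 8 ZFPs had a peak at chr19:14529166-14529927. This place is also the principal start of TECR, at 14529594, which encodes an enzyme of very long chain fatty acid synthesis, and the microRNA gene MIR639 lies inside it. The folds were 4.72 to 6.91 with a median of 5.86, and the highest was in RNF113A replicate 1. CPSF4, CTCF, PHF7 and RNF113A had their only DNAJB1 peak there, and 4 lists had a peak at both places. A peak at this place cannot be told apart as one of DNAJB1 or of TECR. DNAJA1, a J protein of the cytosol, was called in replicate 1 of CPSF4, PHF7 and ZNF22 alone, with folds of 6.11, 4.86 and 5.29. Its 3 summits lay 117 to 216 bp downstream of the start, and all 3 peaks also lay within 1 kb of a start of APTX, a gene on the other strand.

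The HSP90 genes also differed. HSP90AA1, the inducible cytosolic form, was called in 11 lists of 10 ZFPs, and HSP90AB1, the constitutive form, in 3 lists of 3 ZFPs. At the principal HSP90AA1 start, chr14:102086558-102087506, 8 lists of 7 ZFPs had a peak, with folds of 3.71 to 7.90 and a median of 5.82. G2E3, a ubiquitin ligase with PHD-type fingers, was the ZFP with the peak in both replicates, with folds of 7.89 and 6.01 (mean 6.95 ± 1.33, SD, n = 2) and summits 138 bp apart. The replicate 1 peak of G2E3 stood at the 98.7th percentile of its list. PHF7 replicate 1 had 7.90 and ZNF22 replicate 1 had 7.67. The remaining folds were 5.62 in RNF113A replicate 1, 4.26 in SNRPC replicate 1, 4.07 in TEX13A replicate 1 and 3.71 in CISD1 replicate 1, so the G2E3 values lay in the upper part of this range. Only 1 of these 8 peaks came from a replicate 2 list. Over all genes, 2.07% of pairs were called in replicate 2 lists and 4.42% in replicate 1 lists.

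A further 7 lists of 7 ZFPs had a peak near HSP90AA1 starts 52421 to 52655 bp upstream of the principal one. These peaks at chr14:102138596-102140125 also lay at the start region of WDR20, a gene on the other strand that encodes a partner of ubiquitin-specific proteases. Their folds were 2.00 to 6.60 with a median of 5.06, and APEX2, GIN1 and ZMAT5 had their only HSP90AA1 peak there. At HSP90AB1 the peaks were those of GIN1 replicate 1, with a fold of 5.48, ZNF22 replicate 1, with 4.63, and TRIM55 replicate 2, with 1.99. The summits lay 953, 390 and 1304 bp upstream of the principal start. The GIN1 peak covered an annotated start 935 bp upstream, with its summit 18 bp before it. The TRIM55 peak was within 1 kb only of that upstream start.

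**Figure D3:**
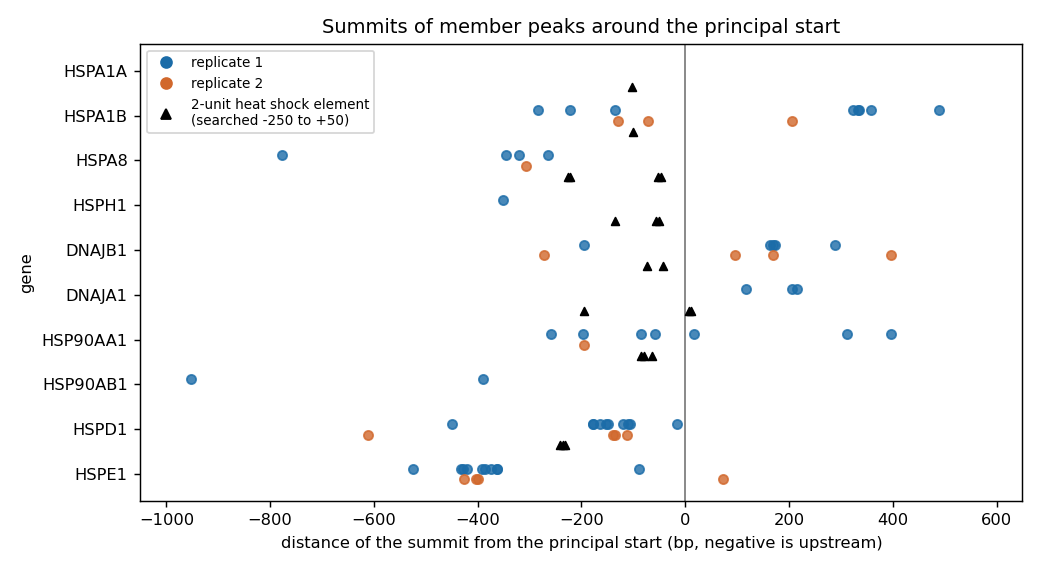
Distance of each summit from the principal start of its gene, in bp along the gene, for the peaks within 1 kb of that start, with replicate 1 in blue and replicate 2 in orange. Triangles mark elements with 2 units found from 250 bp before to 50 bp after the start; 12 of the 14 HSPD1 summits lie in a span of 162 bp, and HSPA1A has an element and no summit.

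At least one member peak was found for 18 ZFPs, and 18 had none. The members called in either replicate are given beside the share of all protein-coding genes called the same way. ZNF22, a C2H2 zinc-finger protein, had 9 of 10 members (25.8% of all genes), all of them in replicate 1 and HSPA1B also in replicate 2. APEX2 had 6 (27.0%), GIN1 6 (13.8%), CISD1 5 (27.6%), PHF7 5 (23.4%), G2E3 4 (21.6%), CPSF4 4 (8.05%) and TEX13A 4 (7.09%). For 4 ZFPs 3 members were called, RNF113A (4.68%), SNRPC (4.66%), MAZ (1.31%) and ZMAT5 (1.16%). HSPD1 and HSPE1 alone, by their shared peak, were called for ZMAT3 (5.24%), ZNF593 (2.56%) and CNOT4 (0.359%). One member each was called for CTCF (13.4%), TRIM55 (2.39%) and MBNL1 (0.474%). CTCF was the one ZFP of these whose member share, 1 of 10, was below the share of all genes. A count of 1 member is 10% by itself, so for a ZFP with a shorter list any member at all puts the share above that of all genes.

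In both replicates, APEX2 had 5 members, HSPA1B, HSPA8, DNAJB1, HSPD1 and HSPE1, beside 8.27% of all genes. CISD1 had 2, HSPD1 and HSPE1, beside 4.76%. G2E3 had HSP90AA1, 1 of 10 beside 5.09%, and ZNF22 had HSPA1B, 1 of 10 beside 4.74%. APEX2 was the one ZFP with more than one promoter in both replicates. All 4 ZFPs had long lists, 1836 to 8702 peaks, and each list was called against the mock IP of its batch.

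More members were called in longer lists. The 25 lists with a member held 289 to 8702 peaks, with a median of 1836, and the 47 lists without one held 15 to 2060, with a median of 452. Over the 72 lists, Spearman's rho between the number of genes called and the number of members called was 0.74, a description of lists that share controls and differ in length. The methods name one approximate read target for all libraries, and the sources used here give no read total for each. A list with no member peak therefore does not show that the ZFP was absent from these promoters.

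**Figure D4:**
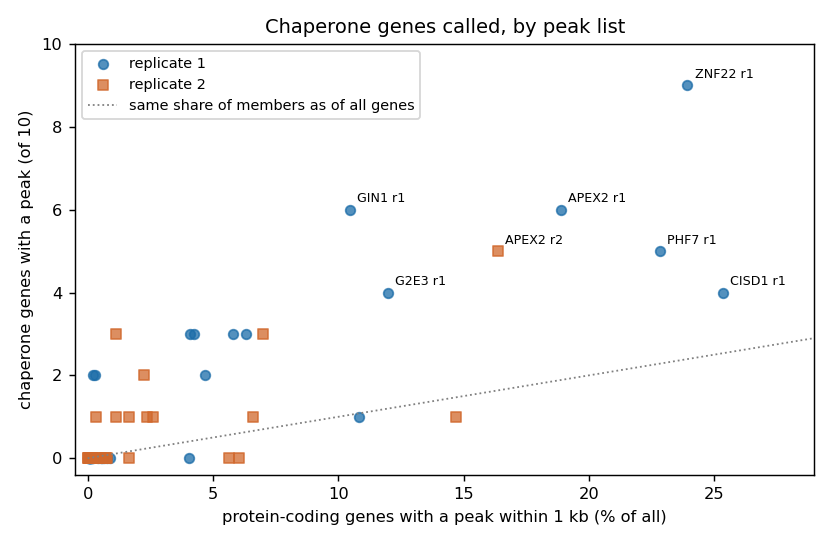
Number of chaperone genes called (of 10) against the percentage of all protein-coding genes called, one point per peak list, with replicate 1 as blue circles and replicate 2 as orange squares. The dotted line is where the members are called as often as all genes; ZNF22 replicate 1 lies highest with 9 members, and G2E3 replicate 2 lies below the line with 1.

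Some lists stood apart. A peak on the exons of its own ZFP gene, which the plasmid carries, was found in both replicates of 32 of 36 ZFPs, in 1 replicate of MBNL1 and TRIM55, and in neither of U2AF1 and ZMAT5. U2AF1 had no member peak. The member peaks of TRIM55 and ZMAT5 came from replicate 2 lists of 3244 and 2191 peaks, beside replicate 1 lists of 114 and 95. Their folds of 1.99 to 2.00 were the only ones under 3 at the members, in lists with a median promoter fold of 2.00. These 2 lists held no peak on the exons of their own ZFP, and for TRIM55 such peaks stood in replicate 1 alone. Without both ZFPs, 16 ZFPs had a member peak, HSPD1 and HSPE1 had 11, HSP90AA1 had 9 and HSP90AB1 had 2. Without ZNF22 replicate 1, 64 of the 73 pairs were left, and HSPH1 had no peak.

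Whether the fold at a gene differed between ZFPs by more than between replicates could be tested only where at least 6 ZFPs had the peak in both replicates. This held for 105 protein-coding genes and for none of the members, which had at most 2 such ZFPs. One of the 105 genes passed at an adjusted p of 0.05 in the permutation test, one-sided, with Benjamini-Hochberg adjustment. The order of folds between ZFPs at a member is therefore given as values without a test.

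Beside the peaks, the promoters shared sequence features that the choice of genes did not use directly. An element of 2 units, GAANNTTC or TTCNNGAA on either strand, was found from 250 bp before to 50 bp after the principal start of 8 of 10 members and of 11.0% of all 20033 promoters. HSP90AB1 and HSPE1 had none in this window, although the row in the HSPD1 window lies between the HSPD1 and HSPE1 starts. A row of 3 such units in alternating direction and 2 bases apart, which contains the pair, was found in 5 members, DNAJA1, HSP90AA1, HSPA8, HSPD1 and HSPH1, and in 0.364% of all promoters. CCAAT was found in 5 members and 36.1% of promoters, TATAAA in 2 members and 9.71%, and GGGCGG in all 10 members and 61.3%. The GC content of the members' windows was 57.0% to 78.7% with a median of 65.5%, beside a median of 63.7% over all promoters.

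Distances below are from a summit to the nearest 2-unit element within 1000 bp, which can lie outside the windows printed above. They were short at some promoters and not at others. Within 100 bp of the summit, 20 of 73 member peaks held a 2-unit element, or 27.4%, as did 4.28% of all 42761 promoter peaks in the lists. These 20 peaks lay at 6 members, HSPA1B, HSPA8, DNAJB1, HSP90AA1, and HSPD1 and HSPE1 by shared peaks. The share therefore counts the same few promoters repeatedly and is not one of independent promoters. Many of the members are known targets of heat shock factors, and any part of the ZFPs in this share was not tested. At the principal start of HSP90AA1 the 8 summits lay 1.5 to 173.5 bp from the nearest element. Those of SNRPC replicate 1 and G2E3 replicate 1 were nearest, at 1.5 and 6.5 bp. For TEX13A and ZNF22 replicate 1, with summits 311 and 397 bp downstream, that element lay past the printed window. At HSPA1B 5 of 11 summits lay 27.5 to 120.5 bp from an element, and the other 6 lay 306.5 to 590.5 bp away. For the ZNF22 replicate 1 summit 283 bp upstream it was not the printed element. At the DNAJB1 principal start the distances were 67.5 to 217.5 bp. There the elements nearest to the summits of APEX2 replicate 2 and ZNF22 replicate 1, 397 and 289 bp downstream, also lay past the window. No 2-unit element was found within 1000 bp of the summit for 7 of the 8 peaks at the upstream DNAJB1 start.

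The wider chaperone network was read in the same way, over 74 other genes. A peak was called for any ZFP at 64 of them, where the same rule called 55.7% of all genes. One of 74, CDC37, the co-chaperone that loads kinases onto HSP90, was called for 10 ZFPs, 4 of them in both replicates. Over all genes, 2.25% were called for at least 10 ZFPs. A further 7 genes had 9 ZFPs each, so 8 of 74 had at least 9, beside 3.67% of all genes. They were BAG5, a nucleotide exchange factor of HSP70, CCT3, a subunit of the cytosolic chaperonin, HSP90B1, the HSP90 of the endoplasmic reticulum, HSPA14, a ribosome-bound HSP70, HSPA9, the HSP70 of mitochondria, HSPBP1, another exchange factor of HSP70, and IFT25, a protein of intraflagellar transport once named HSPB11 as a small heat shock protein. The median over the 74 genes was 3 ZFPs, beside 5.5 for the 10 members and 1 for all protein-coding genes.

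The groups within this network ranged widely. The counts of genes called at least once stand beside the same 55.7% of all genes. All 8 CCT subunits and all 19 co-chaperones and exchange factors were called, with medians of 4 ZFPs in each group. Of 18 other J proteins 17 were called, with a median of 2.5, and of 12 other HSP70 and HSP110 genes 10 were called, with a median of 3.5. Of 10 small heat shock genes 5 were called, with a median of 0.5. HSF2 was called for 8 ZFPs, HSF1 for 1 and HSF4 for none.

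The members called in at least 10 lists were compared with other genes by the Jaccard index of the lists in which each was called, the share of lists with both among lists with either. Genes that shared a peak with the member were left out, such as TECR for DNAJB1 and WDR20 for HSP90AA1, and HSPD1 and HSPE1 for each other, which were called in the same 14 lists. Among the rest, HSPD1 and HSPE1 were most like RALY (0.65, 11 shared lists), TYK2 (0.64, 9 shared) and ZNFX1 (0.63, 10 shared). HSP90AA1 was most like BRSK2 (0.75, 9 shared), TMEM250 (0.73, 8 shared) and DCUN1D2 (0.69, 9 shared). DNAJB1 was most like PPFIA3, PRXL2B and STT3B, each at 0.64 with 9 shared lists. None of these 9 genes is a member or on the chaperone list.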

How the data were processed

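According to the methods and the submitters' processing notes, the authors used Trimmomatic 0.36 for trimming, Bowtie2 2.3.5.1 for alignment to hg38 and Picard 0.1.8 against PCR duplicates. MACS2 2.2.7.1 then gave narrow peaks per library, at an FDR of 0.05, set against a mock IP from that library's batch. Per library, the deposited lists give each peak's fold (a ratio), its −log10 p and −log10 q, a score (10 times −log10 q with the decimals dropped) and the summit. The methods give one approximate sequencing target for all libraries. The sources used here name no batch or read total per library, and the lists held 15 to 8702 peaks each (median 631). Peak calls of separate libraries depend on their depth, which was not known here.

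Lists were mapped to ZFP and replicate from their labels. Peaks were assigned to all 20033 protein-coding genes of GENCODE 44 (hg38) by the distance from the nearest peak edge to any TSS. The principal start is that of the canonical transcript. The annotation may differ from the one the authors used. Calls are those of the peak caller, and member counts are read beside the share of all genes called. The fold was tested per gene by a permutation test (all 10395 pairings of 12 lists with 6 ZFPs, otherwise 100000 random reassignments) with Benjamini-Hochberg adjustment over all genes tested. Promoter sequences are from RefSeq, and motifs were searched on both strands. Named were all 10 members, every ZFP with a member in both replicates, the most often called genes of the chaperone list (5 by the rule, 8 with ties) and the 3 genes most alike by list that shared no peak with the member. The list was matched by symbol, with HSPB11 found as IFT25. The members and lists were chosen with earlier results of these data known. Values were computed with Python 3.11.15, numpy 2.4.6, scipy 1.17.1, pysam 0.24.0, Biopython 1.88 and matplotlib 3.10.9, and the procedures were tested on simulated data. The alternatives were other distances, start sets, q-value thresholds, overlapping peaks, left-out lists, fold scales and element definitions.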

Additional observations from a re-analysis of the deposited data

How the results depend on the processing

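The share of gene-by-list pairs with a member peak stayed above that of all genes under each of 13 alternatives. It fell from 10.1% to 2.22%, beside 0.709% of all genes, when only peaks that overlapped the other replicate were kept, and without replicate 1 or 2 it ranged from 5.56% to 14.7%. With HSPD1 and HSPE1 counted as 1 promoter it was 9.10%. This setting and those without ZNF22 replicate 1 or the TRIM55 and ZMAT5 lists were chosen after seeing the data. The number of ZFPs with a member, 18 in either and 4 in both replicates, ran from 12 to 18 and from 3 to 4 under the 7 alternatives tried for each. When a peak had to cover a TSS, the ZFPs fell from 12 to 7 at DNAJB1 and from 10 to 6 at HSP90AA1. They fell from 12 to 8 at HSPE1, from 12 to 11 at HSPD1 and from 7 to 3 at HSPA1B. At DNAJA1 and HSP90AB1 they fell from 3 to 1 and at HSPH1 from 1 to 0, and HSPA8 kept 4. At a q-value of 0.001 HSP90AA1 had 5 ZFPs (6 at 0.01) instead of 10, and HSPA1B 3 instead of 7. HSPA8 had 2 instead of 4, HSP90AB1 1 instead of 3 and DNAJA1 2 instead of 3. HSPD1 and HSPE1 had 9 each and DNAJB1 had 8, all instead of 12, and HSPH1 kept 1. The median distance of a member summit from the nearest start was 152 bp (147 to 162.5 bp without either replicate) and 258 bp from the principal start alone. With rows of 3 units, 5 members held a heat shock element in place of 8. The number of genes whose fold differed between ZFPs, 1 of 105, was 0 with centred folds (15 at an unadjusted p under 0.05), 0 with the peak nearest the TSS (11 unadjusted), 2 with the replicate block and 3 of 24 with at least 8 ZFPs. Deviations of replicate 1 correlated between ZFPs by -0.28 to 0.19, and by over 0.1 in 5 of 27 pairs of ZFPs. Each ZFP's mean replicate difference was removed first, over genes called in both replicates. A shift common to a whole list is not seen this way, so whether replicate numbers pair the lists was not settled. Leaving out a replicate leaves no spread within a ZFP, so the fold test was not run that way.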
